A study of Homo sapiens with 12 samples.

Results

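The genes of the translation initiation factors (symbols beginning with EIF and a digit) and of the translation elongation factors (EEF and a digit) were followed through the deposited PAR-CLIP clusters of HepG2 cells. Of 19983 protein-coding genes of GENCODE release 44 outside chromosome Y, 70 carried such a symbol, and 584 of the 102250 clusters had their midpoint in one of them on the same strand. A cluster is a stretch of RNA that crosslinked to the precipitated protein, called in one library. HepG2 is a human liver cancer cell line, here of wildtype genotype, and all cells were labelled with 4-thiouridine, crosslinked with ultraviolet light and digested with RNase T1, which cuts after G. The 12 libraries formed 2 classes. In the first were 8 libraries of the IGF2BP family, RNA-binding proteins studied here for their reading of m7G inside mRNAs, with 2 libraries each for IGF2BP1, IGF2BP2, IGF2BP3 and the IGF2BP3 samples that carry the extra label bio2. In the second were 2 libraries each for METTL1 and WDR4, the partners of the methyltransferase that writes m7G. There was no input or mock library among the 12, and RNA levels were not analysed here, so a highly expressed mRNA cannot be told apart from a strongly bound one.

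Libraries held between 4581 and 15701 clusters, so 1 cluster was worth 2.18 per 10000 in the smallest and 0.637 per 10000 in the largest. Of 8 liver markers checked (ALB, AFP, APOB, APOA1, SERPINA1, TTR, FGB and TF), 7 had clusters in mRNA exons, among them APOB, SERPINA1 and FGB in all 12 libraries, while TTR had none. The bio2 libraries differed from the other IGF2BP libraries in their regions, which is given beside the results it touches.

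Initiation begins when eIF4F (the cap-binding eIF4E, the scaffold eIF4G and the helicase eIF4A) recruits the small ribosomal subunit, loaded with eIF3 and with eIF2 carrying the initiator tRNA, to the capped end of an mRNA. eIF1, eIF1A, eIF5 and eIF5B select the start codon and join the large subunit. Kinases that phosphorylate eIF2 and proteins that sequester eIF4E turn initiation down under stress. In elongation, eEF1A delivers the aminoacyl-tRNA, eEF2 moves the ribosome along the mRNA, and eIF5A relieves stalls. Many of these mRNAs are abundant in growing cells, and several have large families of processed pseudogenes.

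Overlapping clusters of all libraries were merged into sites. The 8 sites of these genes found in the most libraries are printed to show which RNA stretches recurred, followed by the site of EIF5, the gene that passed the test described below and was added for that reason. Each line gives the 30 nt around the stretch covered by the most libraries, in hg38 and in DNA letters of the transcribed strand, 5′ to 3′. Capitals mark CAT followed by A, C or T, which is the CAUH motif of IGF2BP proteins in DNA letters.

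EIF4H, 3' UTR, chr7:74195755-74195784 (+): gttctgtattgctggggcttccaacaaaaa

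EIF4H, 3' UTR, chr7:74196761-74196790 (+): gcaatccacagaactctctctccttccttc

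EIF2AK2, 3' UTR, chr2:37103925-37103954 (-): gttgacccagctggttttgaactcctgacc

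EIF4A1, 3' UTR, chr17:7578700-7578729 (+): caaaaaaaaaaaaaaaacactaatcCATTt

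EIF4EBP2, 3' UTR, chr10:70422970-70422999 (+): cctccctcactttcttcctctctccttcct

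EEF2, 3' UTR, chr19:3976390-3976419 (-): cgtgcCATCactcaacCATAacacttgatg

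EIF2AK1, 3' UTR, chr7:6024406-6024435 (-): ctcaattattttctcctttcaactctgttg

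EIF4G2, coding sequence, chr11:10800177-10800206 (-): gcaccCATTttcctctcttcctactttgtc

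EIF5, coding sequence, chr14:103337200-103337229 (+): tgcaCATTCATTctcaaaaacccacctggt

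Both EIF4H sites were present in all 12 libraries. The sites of EIF2AK2, EIF4A1 and EIF4EBP2 were present in 10, those of EEF2, EIF2AK1 and EIF4G2 in 9, and that of EIF5 in 8. Of these 9 windows, 4 held the motif, with 2 matches each in the EEF2 and EIF5 windows. The centre of the clusters was a single-copy sequence of the genome at the EEF2, EIF2AK1 and EIF4G2 sites. It occurred at a median of 2 places for EIF4EBP2, EIF5 and the first EIF4H site, 3 for the second EIF4H site, 7 for EIF4A1 and 613.5 for EIF2AK2. Reads were allowed to map to up to 10 places, so clusters of such sequences may hold reads of other loci.

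Of the 70 genes, 45 (64.3%) had at least 1 cluster in an mRNA exon (5' UTR, coding sequence or 3' UTR of a protein-coding transcript), against 29.5% of all protein-coding genes, and 25 had none. The 45 genes held 437 such clusters, of which 14 lay in 5' UTRs, 122 in coding sequence and 301 in 3' UTRs. The counts were uneven. EEF2, EIF2AK2, EIF4EBP2 and EIF4G2 together held 168 of the 437 (38.4%), and the heat map of counts shows most other genes at 0 to 3 clusters in a library.

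**Figure D1:**
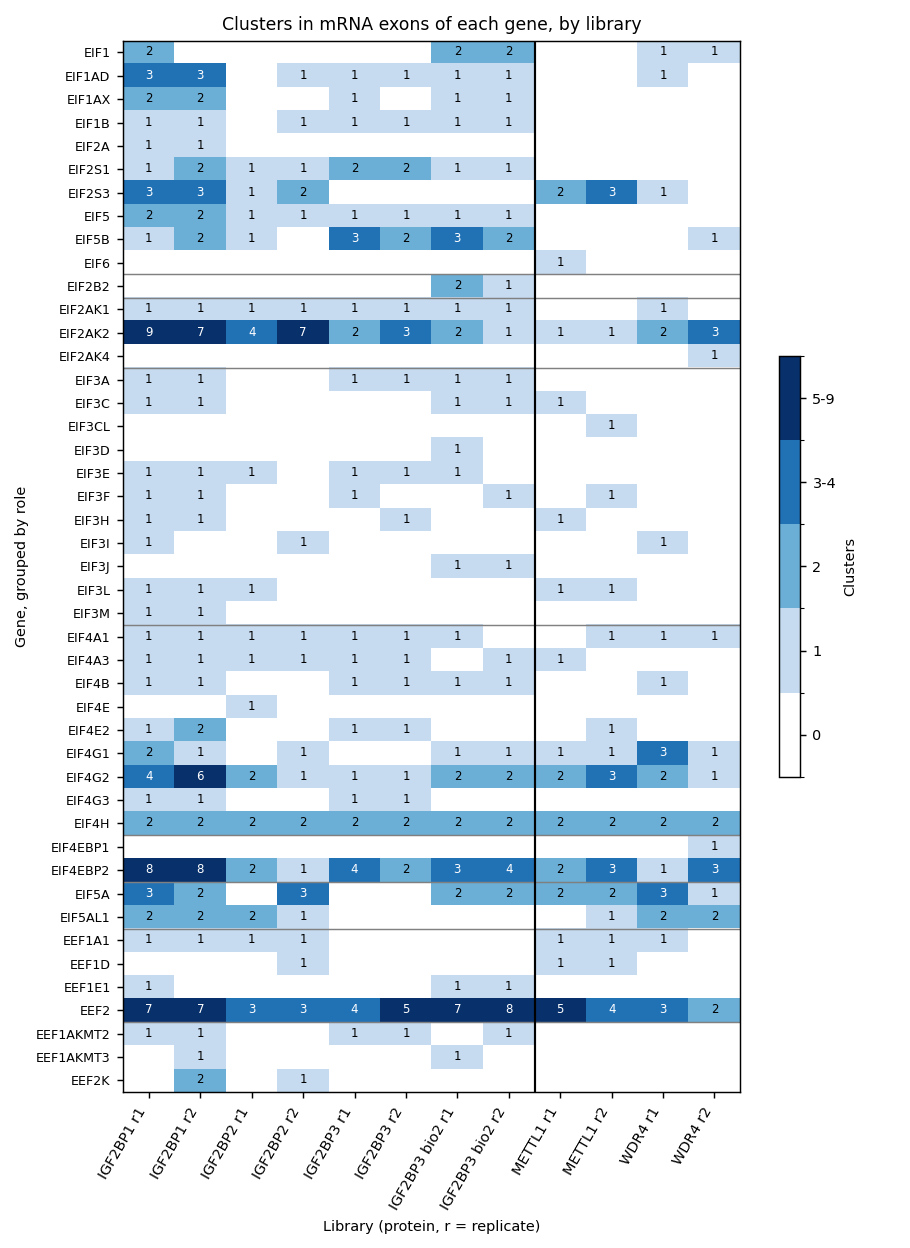
Number of clusters in mRNA exons of each of the 45 factor genes with any (rows, grouped by role) in each of the 12 libraries (columns, IGF2BP to the left of the black line, METTL1 and WDR4 to its right). EIF4H stands at 2 in every library, EEF2, EIF2AK2, EIF4EBP2 and EIF4G2 have clusters throughout, and EIF5 and EIF2S1 have clusters to the left of the line alone.

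A site was called reproducible for a protein when clusters of at least 2 of its libraries overlapped by 1 nt or more. IGF2BP1 had such an mRNA-exon site in 28 of the 70 genes (40%), where the share among all protein-coding genes was 15.6%. IGF2BP2 had one in 12 (17.1%, against 5.79%) and IGF2BP3, with 4 libraries, in 28 (40%, against 13.8%). METTL1 and WDR4 each had one in 9 genes (12.9%), against 2.84% and 3.22% of all genes. Divided by the genes with any mRNA-exon cluster instead, the shares of the 45 genes were 62.2% in both IGF2BP1 and IGF2BP3, 26.7% in IGF2BP2 and 20% in both METTL1 and WDR4. Of all genes with a cluster, IGF2BP1 had 53.0%, IGF2BP3 46.7%, IGF2BP2 19.7%, METTL1 9.64% and WDR4 10.9%. With clusters of single-copy sequence alone, the counts of factor genes fell to 17 of 70 (24.3%) in both IGF2BP1 and IGF2BP3, against 12.8% and 11.6% of all protein-coding genes. METTL1 then had 4 (5.71%) and WDR4 3 (4.29%), against 1.9% each. IGF2BP2 had 3 (4.29%), near the 4.14% of all genes.

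**Figure D2:**
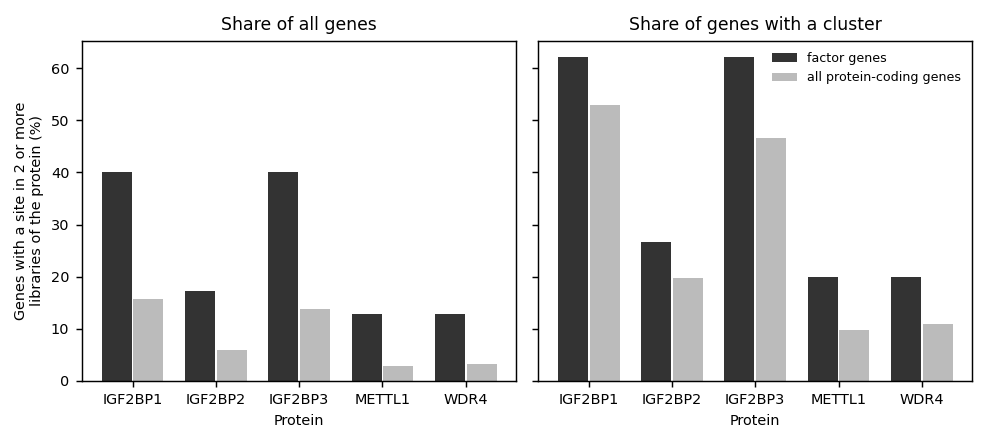
Share of genes with a site in 2 or more libraries of a protein, for the 70 factor genes (dark bars) and the 19983 protein-coding genes (pale bars). The left panel divides by all genes of each set and the right panel by the genes with any mRNA-exon cluster (45 and 5891), where the dark bar is the higher for each of the 5 proteins.

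In 35 of the 70 genes at least 1 protein had a reproducible site, a count that was not made over all genes. EEF2, EIF2AK2, EIF4EBP2 and EIF4H had one for all 5 proteins, that is 4 genes of 70, while 1.49% of all protein-coding genes did. This count was not made on single-copy clusters. The sites with clusters of both METTL1 and both WDR4 libraries had a median of 613.5 copies in EIF2AK2, 2 in EIF4EBP2 and 2 and 3 in EIF4H. That of EEF2 had 1. EIF4A1, EIF4G1 and EIF4G2 had one for 4 proteins. Clusters were present in all 12 libraries for 5 genes, namely EEF2, EIF2AK2, EIF4EBP2, EIF4G2 and EIF4H, and for 1.15% of all genes.

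Of the elongation factors, EEF2 carried the most mRNA-exon clusters of all 70 genes. The IGF2BP1 libraries held 7 and 7, the IGF2BP2 libraries 3 and 3, the IGF2BP3 libraries 4 and 5, and the bio2 libraries 7 and 8. METTL1 had 5 and 4, and WDR4 3 and 2. The bio2 libraries were the highest once scaled, at 10.8 and 13.3 clusters per 10000, and the classes overlapped. The IGF2BP libraries averaged 7.19 ± 3.28 (SD, n = 8) and the METTL1 and WDR4 libraries 4.36 ± 2.36 (n = 4), and the difference did not pass the test (exact permutation test, adjusted p = 0.316). Most EEF2 clusters lay in coding sequence, 47 of 58, and 57 of 58 had a single-copy centre. They fell into 15 sites, of which 6 were present in 4 or more libraries. On the longest coding transcript, 42 lay in the coding sequence and 16 in the 3' UTR, since one site is coding only in another isoform.

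The most shared EEF2 site was the one printed above, centred 153 nt after the stop codon. It was found in both IGF2BP1 libraries, all 4 IGF2BP3 libraries and 1 library each of IGF2BP2, METTL1 and WDR4. Of the sites in the coding sequence, 4 were present in 8 libraries each. Those centred 1777 and 1071 nt after the start codon were in the IGF2BP1, IGF2BP2 and METTL1 libraries and both IGF2BP3 libraries without the bio2 label, and in no bio2 or WDR4 library. The site centred at 1638 nt was in those of IGF2BP1, bio2, METTL1 and WDR4. The site centred at 300 nt was in both IGF2BP1 and all 4 IGF2BP3 libraries, METTL1 replicate 1 and WDR4 replicate 2.

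EEF1A1, the factor that carries aminoacyl-tRNA to the ribosome, had 7 mRNA-exon clusters, 1 in each IGF2BP1, IGF2BP2 and METTL1 library and 1 in WDR4 replicate 1. All 7 were in 3' UTR sequence, and 0 had a single-copy centre. The sites they formed had medians of 296, 5 and 5024 copies. The mRNA-exon site in the most libraries (4) was centred 1279 nt after the stop codon. A further 43 clusters of the gene lay in introns of its annotated transcripts, more than for any other factor gene. The intron site in the most libraries was in 8, all but those of IGF2BP3. Median copies of the intron sites ran from 1 to 61412. Of the 30-nt windows of the EEF1A1 coding sequence, to which no cluster was assigned, 6.52% were unique in hg38, 78.7% had 2 to 10 copies and 14.8% had more than 10. Of 48 annotated EEF1A1 pseudogenes, 1 held a cluster. EEF1D, EEF1E1 and EEF1B2 had 3, 3 and 0 mRNA-exon clusters, and none lay in EEF1G or EEF1A2. The 3 clusters of EEF1D, a subunit of the exchange factor that reloads eEF1A, were all in its 5' UTR, 2 of them in the METTL1 libraries. On its longest coding transcript 0 lay in an mRNA exon, so this 5' UTR belongs to other isoforms.

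EIF5A, whose product carries the hypusine residue, and the EIF5A-like gene EIF5AL1 held 20 and 12 clusters. EIF5A had 3 and 2 in IGF2BP1, 0 and 3 in IGF2BP2, 0 and 0 in IGF2BP3, 2 and 2 in the bio2, 2 and 2 in the METTL1, and 3 and 1 in the WDR4 libraries. Only 3 of the 20 had a single-copy centre, and none of the EIF5AL1 clusters did. The 2 genes are near-identical copies, so their counts are uncertain. A pseudogene, EIF5AP2, held 5 more clusters. The means were 1.72 ± 1.65 and 2.37 ± 0.926 per 10000 (adjusted p = 0.592, exact permutation test) for EIF5A.

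**Figure D3:**
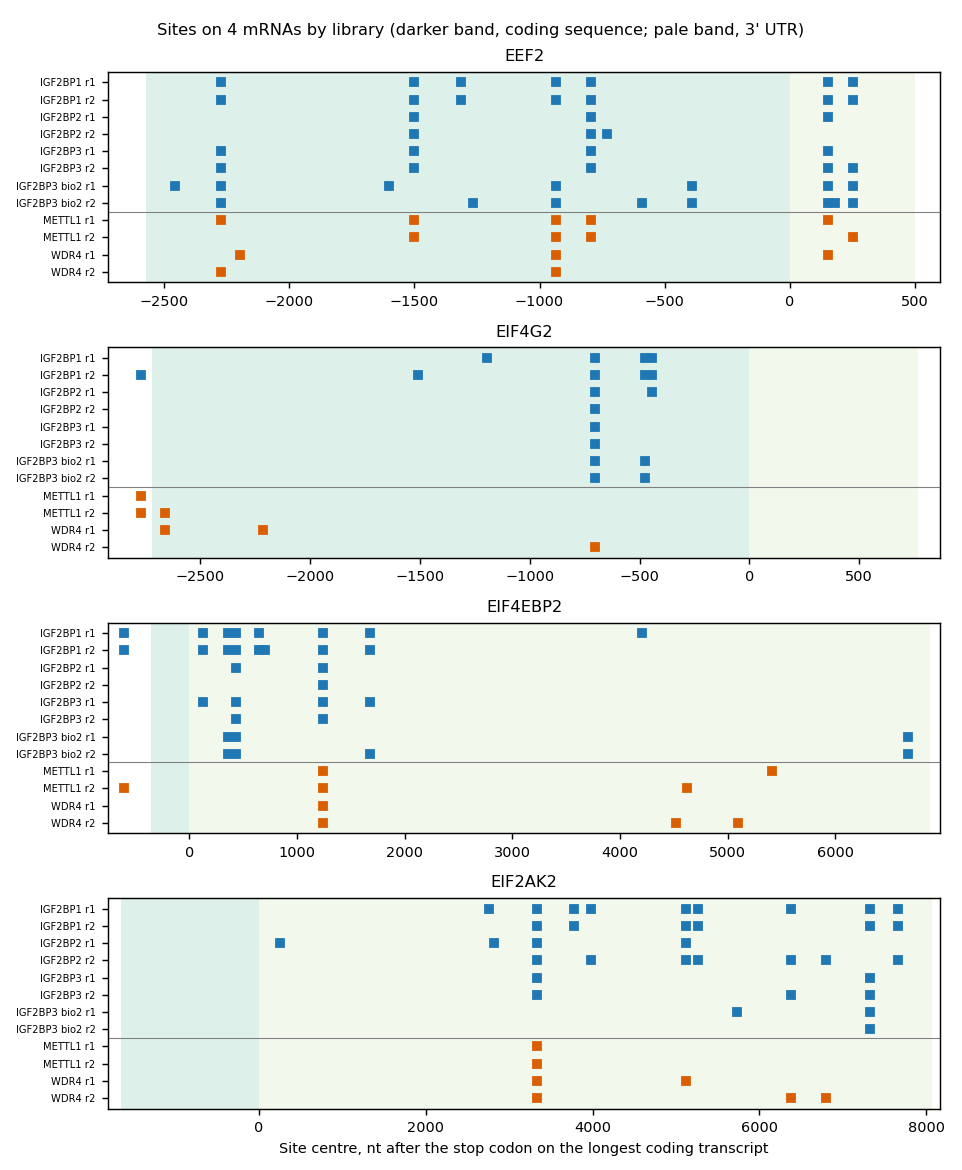
Sites on EEF2, EIF4G2, EIF4EBP2 and EIF2AK2 (panels), by nt from the stop codon of the longest coding transcript (horizontal) and library (vertical, IGF2BP in blue above the line, METTL1 and WDR4 in orange below it). Each square is the centre of a site with a cluster of that library. The EEF2 and EIF4G2 squares lie mostly in the darker coding band, and those of EIF4EBP2 and EIF2AK2 mostly in the pale 3' UTR band.

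The eIF4F group, that is the cap-binding proteins, scaffolds and helicases with their paralogues and helpers, held clusters in 9 of its 11 genes, 99 in all. Not every product in it is a part of eIF4F. EIF4A3, with 8 clusters, was counted as a paralogue of EIF4A1. A reproducible site was found in 8 of the 11 for IGF2BP1 and for IGF2BP3, in 4 for IGF2BP2, and in 3 each for METTL1 and WDR4. Over all protein-coding genes the shares were 15.6% for IGF2BP1, 13.8% for IGF2BP3, 5.79% for IGF2BP2, 2.84% for METTL1 and 3.22% for WDR4. EIF4H, which stimulates the helicase eIF4A, had exactly 2 clusters in each of the 12 libraries, one at each of its printed sites, centred 464 and 1470 nt after the stop codon. Scaled to library size these were 2.77 ± 1.02 per 10000 (n = 8) and 2.39 ± 0.436 (n = 4), and the adjusted p was 0.638 (exact permutation test). None of the 24 clusters had a single-copy centre.

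EIF4G2, a scaffold related to eIF4G that lacks the binding site for eIF4E, had 4 and 6 clusters in IGF2BP1, 2 and 1 in IGF2BP2, 1 and 1 in IGF2BP3, 2 and 2 in the bio2, 2 and 3 in the METTL1, and 2 and 1 in the WDR4 libraries. The classes overlapped (adjusted p = 0.773, exact permutation test). The printed coding site, 2017 nt after the start codon, was in all 8 IGF2BP libraries, in WDR4 replicate 2 and in no METTL1 library. The 3' UTR of EIF4G2 held no cluster, and 6 of its 27 clusters lay in the 5' UTR. Such placement was seen in few genes. Of the 14 clusters in 5' UTRs, 6 were in EIF4G2, 3 in EIF4EBP2, 3 in EEF1D and 1 each in EIF4E2 and EIF4G1. The placement depended on the isoform. On the longest coding transcript, 3 clusters of EIF4G2 and 3 of EIF4EBP2 lay in the 5' UTR. For EEF1D, EIF4E2 and EIF4G1 the number was then 0.

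EIF4G1, the main scaffold, had 2 and 1 clusters in IGF2BP1, 0 and 1 in IGF2BP2, 0 and 0 in IGF2BP3, 1 and 1 in the bio2, 1 and 1 in the METTL1, and 3 and 1 in the WDR4 libraries. It was among the 7 of 30 tested factor genes with a lower mean in the IGF2BP libraries (0.821 ± 0.744 against 1.71 ± 0.929 per 10000, adjusted p = 0.272, exact permutation test). The difference of -0.89 was -0.43 without WDR4 replicate 1. Per 10000 mRNA-exon clusters it was -4.61, at the smallest p the test can give, 0.00202, and an adjusted p of 0.0572 (exact permutation test). All 12 of its clusters had a single-copy centre.

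EIF4A1, the helicase of eIF4F, had 1 cluster in each of 10 libraries, all at the printed site 231 nt after the stop codon. Its paralogue EIF4A2 had none in an mRNA exon. The 7 clusters in EIF4A2 lay in exons of its other transcripts, 3 over SNORD2 and 4 over SNORA81 and MIR1248, small RNAs hosted by the gene. In all, 20 clusters of factor genes overlapped a small RNA, and their hosts were EEF1B2, EIF4A1, EIF4A2, EIF4G1 and EIF4G2. The cap-binding protein gene EIF4E had 1 cluster, in IGF2BP2 replicate 1, and EIF4E2, its relative, had 6. EIF4B, which also assists eIF4A, had 7 clusters, all in coding sequence that occurs at a median of 5 places, and 3 of its pseudogenes held 15 more.

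Of the proteins that sequester eIF4E, EIF4EBP2 had 41 clusters and EIF4EBP1 had 1, in WDR4 replicate 2. The EIF4EBP2 counts were 8 and 8 in IGF2BP1, 2 and 1 in IGF2BP2, 4 and 2 in IGF2BP3, 3 and 4 in the bio2, 2 and 3 in the METTL1, and 1 and 3 in the WDR4 libraries. IGF2BP1 stood highest by count, while on the scale of library size bio2 replicate 2 did, at 6.66 per 10000. The means were 4.59 ± 1.75 (n = 8) and 2.69 ± 1.13 (n = 4), and the difference did not pass the test (adjusted p = 0.246, exact permutation test). The 3' UTR held 38 of the 41. Its 6874 nt carried the printed site, 1240 nt after the stop codon, in both libraries of IGF2BP1, IGF2BP2, METTL1 and WDR4 and both IGF2BP3 libraries without the bio2 label, but in neither bio2 library. A site 433 nt after the stop codon was in 7 libraries, all of the IGF2BP class. Another, 360 nt after it, was in both IGF2BP1 and both bio2 libraries.

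Among the kinases of eIF2, EIF2AK2, known as the double-stranded RNA-activated kinase PKR, had 42 clusters, all in its 3' UTR. There were 9 and 7 in IGF2BP1, 4 and 7 in IGF2BP2, 2 and 3 in IGF2BP3, 2 and 1 in the bio2, 1 and 1 in the METTL1, and 2 and 3 in the WDR4 libraries. IGF2BP2 was highest on the scale of library size, at 8.73 and 9.37 per 10000, and METTL1 lowest, at 1.51 and 1.16. The means were 5.13 ± 2.76 (n = 8) and 1.99 ± 0.920 (n = 4), with an unadjusted p of 0.0505 and an adjusted p of 0.181 (exact permutation test). In 22 of the 42 clusters the centre was single-copy. A single-copy site 7321 nt after the stop codon was in both IGF2BP1 and all 4 IGF2BP3 libraries and in no other. EIF2AK1, the heme-regulated kinase, had 1 cluster in each IGF2BP library and in WDR4 replicate 1, all at the printed site, and all with a single-copy centre. EIF2AK4 had 1 cluster and EIF2AK3 had none in an mRNA exon.

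The genes of start codon selection and of the ternary complex included the one that passed the test. In the test, the mean number of mRNA-exon clusters per 10000 was compared between the 8 IGF2BP and the 4 METTL1 and WDR4 libraries over all arrangements of 8 and 4 libraries, with Benjamini-Hochberg adjustment over the 3056 genes that had clusters in at least 4 libraries. Of the 30 factor genes tested, 1 had more clusters in the IGF2BP libraries (3.33%, against 4.22% of all tested genes) and 0 had fewer (0.295% of all). At an unadjusted p under 0.05 there were 8 with more, against 25.1% of all tested genes, and 0 with fewer, against 1.83%. The 8 are 26.7% of the 30, near the share of all tested genes. A positive difference was seen in 23 of the 30 (76.7%), and in 83.2% of all tested genes. Since clusters in any 4 libraries sufficed, a gene could enter the test through the IGF2BP libraries alone and then had to differ in that direction. This holds for 8 of the 30 factor genes (26.7%, all tested genes 27.9%), which had no METTL1 or WDR4 cluster, namely EIF5, EIF2S1, EIF1B, EIF3A, EIF3E, EIF1AX, EIF4G3 and EEF1AKMT2. The median difference was 0.61 per 10000 in the factor genes and 0.75 in all. The direction depended on the scale. Per 10000 mRNA-exon clusters of protein-coding genes, 16 of the 30 factor genes (53.3%, all genes 61.9%) had a positive difference, and no gene passed the adjusted threshold. At an unadjusted p under 0.05 there were then 5 with more, EIF1B, EIF2S1, EIF3A, EIF3E and EIF5 (15.5% of all tested genes), and 4 with fewer, EIF4G1, EIF4G2, EIF4H and EIF5A (8.87% of all). On this scale the differences of EEF2, EIF4A1, EIF4EBP2, EIF4G2 and EIF4H turned negative.

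EIF5, the protein that triggers GTP hydrolysis by eIF2, was the gene that passed. It had 2 clusters in each IGF2BP1 library and 1 in each of the other 6 IGF2BP libraries, and none in the METTL1 and WDR4 libraries, so the classes did not overlap. The means were 1.55 ± 0.286 (n = 8) and 0 (n = 4) per 10000, with the smallest p that the test can give, 0.00202, and an adjusted p of 0.0447 (exact permutation test). The call was at the edge of the threshold and depended on the libraries. It was lost when any single library other than IGF2BP2 replicate 1 was left out (adjusted p between 0.0534 and 0.113), without both bio2 libraries (0.0590), on the other scales tried (0.0572 per 10000 mRNA-exon clusters, 0.112 on raw numbers and 0.0895 on presence or absence), and on single-copy clusters, where EIF5 fell below the filter. All 10 clusters lay in coding sequence, 8 of them at the printed site, 425 nt after the start codon. Of the 10, 2 had a single-copy centre, and the pseudogene EIF5P1 held 4 clusters in 4 libraries.

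EIF2S1, the subunit of eIF2 that the stress kinases phosphorylate, was the other of 2 factor genes in which every IGF2BP library lay above every METTL1 and WDR4 library. These are 6.67% of the 30 tested, near the 7.53% of all tested genes, and there were 0 in the opposite direction (0.295% of all). Its counts were 1 and 2 in IGF2BP1, 1 and 1 in IGF2BP2, 2 and 2 in IGF2BP3, 1 and 1 in the bio2 libraries and 0 in the rest. The difference was 1.84 per 10000 (adjusted p = 0.0664, exact permutation test). Of its 2 sites, one, 2291 nt after the stop codon, lay in sequence with a median of 465 copies. The other, at 2065 nt, was single-copy and was found in IGF2BP1 replicate 2 and all 4 IGF2BP3 libraries.

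The other genes listed in this group with an unadjusted p under 0.05 (exact permutation test) were EIF1AD, EIF1B and EIF5B. EIF5B, the GTPase that joins the subunits, had 3, 2, 3 and 2 clusters in the 4 IGF2BP3 libraries, at most 2 in any other IGF2BP library and 1 among the METTL1 and WDR4 libraries, in WDR4 replicate 2. Its means were 2.46 ± 1.74 and 0.272 ± 0.543 (adjusted p = 0.180, exact permutation test). EIF1B had 1 cluster in 7 of the 8 IGF2BP libraries and none elsewhere (adjusted p = 0.128), and EIF1AD had 12 clusters, 11 of them IGF2BP (adjusted p = 0.100, exact permutation test). The centre was single-copy in 0 of the 7 EIF1B clusters, 12 of the 12 of EIF1AD and 14 of the 15 of EIF5B. EIF2S3, which encodes the subunit of eIF2 that binds GTP and the initiator tRNA, had 3 and 3 mRNA-exon clusters in IGF2BP1, 1 and 2 in IGF2BP2 and 0 in all 4 IGF2BP3 libraries, with 2 and 3 in METTL1 and 1 and 0 in WDR4. The difference among the IGF2BP proteins was not tested. Of these 15 clusters, 1 had a single-copy centre. The introns of EIF2S3 held a site in 8 libraries, among them both IGF2BP3 libraries without the bio2 label, and another in both bio2 libraries. EIF2S2 had no mRNA-exon cluster, and of the 5 eIF2B genes EIF2B2 alone had any, 3 in the bio2 libraries.

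**Figure D4:**
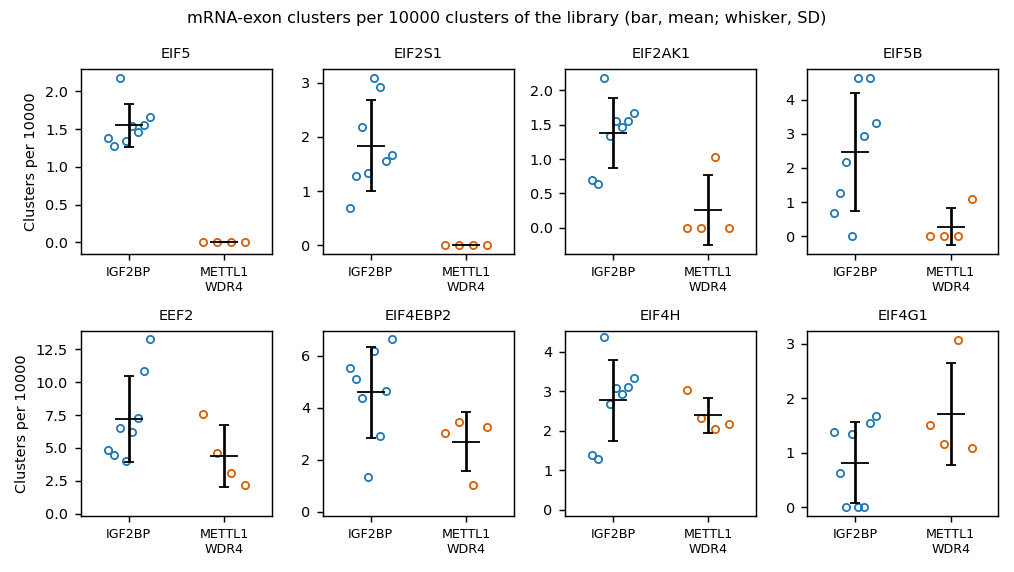
mRNA-exon clusters per 10000 clusters of the library for 8 factor genes, with each library as a circle (8 IGF2BP in blue, 4 METTL1 and WDR4 in orange), the mean as a bar and the SD as a whisker. In EIF5 and EIF2S1 all IGF2BP circles lie above the METTL1 and WDR4 circles, which are at 0, and in the other panels the classes overlap.

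The 14 genes of eIF3, the scaffold that holds the small subunit, were sparsely covered. Clusters were found in 11 of them, 40 in all, at most 1 in any library. EIF3A and EIF3E each had 6, all in IGF2BP libraries, with adjusted p of 0.180 (exact permutation test). EIF3A had its clusters at a single coding site, shared by both IGF2BP1 and all 4 IGF2BP3 libraries. A reproducible eIF3 site existed in 6 of the 14 genes for IGF2BP1 and in 5 for IGF2BP3, where 15.6% and 13.8% of all protein-coding genes had one. It existed in 0 for IGF2BP2, METTL1 and WDR4, against 5.79%, 2.84% and 3.22% of all. EIF3C and EIF3CL are near-identical, and their 5 and 1 clusters cannot be assigned with certainty. Of the genes that modify elongation factors, the methyltransferase gene EEF1AKMT2 had 5 clusters, all IGF2BP, and EEF2K, the kinase that inactivates eEF2, had 3.

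Other genes of the translation machinery and its control, 26 in all and outside the symbol rule, were examined beside the factors. They had an mRNA-exon cluster in 13. IGF2BP1 had a reproducible site in 9 of the 26, against 15.6% of all protein-coding genes. IGF2BP3 had one in 7 (all genes 13.8%), IGF2BP2 in 4 (all genes 5.79%), METTL1 in 3 (all genes 2.84%) and WDR4 in 1 (all genes 3.22%). Of 9 that were tested, 1 had more clusters in the IGF2BP libraries (all tested genes 4.22%) and 0 had fewer (all tested genes 0.295%). It was PDCD4, an inhibitor of eIF4A, which entered through the IGF2BP libraries alone, with 8 clusters, a difference of 1.38 per 10000 and an adjusted p of 0.0447 (exact permutation test), the value of every gene at the smallest p. The highest counts were those of LARP1, a repressor of mRNAs with a terminal oligopyrimidine tract (27 clusters in 11 libraries), MKNK2, a kinase of eIF4E (24 in 8), and GSPT1, the release factor eRF3 (20 in 10).

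Of the mRNA-exon clusters of the factor genes, most were in 3' UTRs in every library. The share of 3' UTR among mRNA-exon clusters was 71.4% and 68.6% in IGF2BP1, 76.9% and 78.1% in IGF2BP2, 75% and 66.7% in IGF2BP3, 58.5% and 61.5% in the bio2, 54.2% and 59.3% in the METTL1, and 76.9% and 85% in the WDR4 libraries. Means of 69.6% ± 7.13 (SD, n = 8) and 68.8% ± 14.5 (n = 4) differed by 0.762 percentage points, less than the spread within either class. The lowest IGF2BP shares were those of the bio2 libraries, which were also lowest over all genes, at 59.8% and 60.9%. On single-copy clusters alone the difference was 12.8 points. Its spread, and the same difference over all genes, were not examined. It rests on few clusters. The METTL1 and WDR4 libraries held 20 to 27 mRNA-exon clusters of factor genes each, of which 40.7% to 58.3% were single-copy.

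Introns held a larger share of the clusters in METTL1 and WDR4. They took 30% to 42.6% of the factor-gene clusters in these 4 libraries and 8.82% to 20.6% in the 8 IGF2BP libraries, with no overlap. Over all protein-coding genes the corresponding ranges were 49.0% to 60.1% and 17.2% to 28.1%. The means of the factor genes, 36.5% and 14.4%, lay below the 53.7% and 22.7% of all genes. In 5' UTRs the mean share was 8.72% ± 8.37 for METTL1 and WDR4, with a range of 0 to 18.5%, and 1.11% ± 1.71 for the IGF2BP libraries. Over all genes these means were 8.77% and 2.51%. All these shares used the 5' UTRs of every protein-coding transcript of a gene. Shares on the longest coding transcript alone were not examined.

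**Figure D5:**
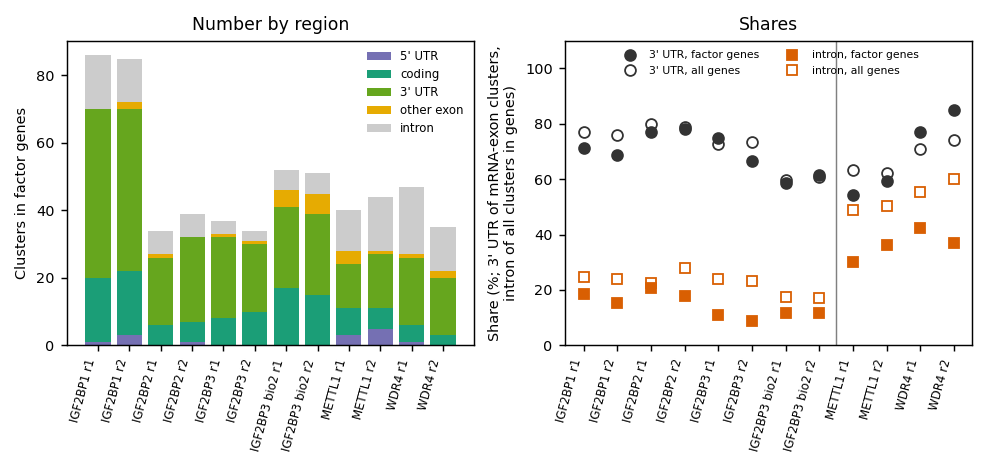
Left, number of clusters in factor genes by transcript region (colours) in each library. Right, the share of 3' UTR among mRNA-exon clusters (circles) and of introns among all clusters in genes (squares), for factor genes (filled) and all protein-coding genes (open), where the intron squares of METTL1 and WDR4, right of the line, lie above those of the 8 IGF2BP libraries.

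The 437 mRNA-exon clusters merged into 131 sites. Of these 48 (36.6%) were seen in 1 library and as many in 4 or more, where all protein-coding genes had 43.9% and 28.5% of 16202 sites. Clusters of both classes met at 38 sites (29.0%, against 20.7% of all sites). IGF2BP libraries alone held 73 (55.7%, against 60.3% of all sites), and METTL1 or WDR4 alone 20 (15.3%, against 19.0%). Of the sites, 27 were common to both IGF2BP3 libraries that lack the bio2 label, and 8 of these (29.6%) were in neither bio2 library. Conversely 14 of the 31 sites of both bio2 libraries (45.2%) were in neither of the others. Over all genes these shares were 43.6% and 40.9%.

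Sequence at the sites was described by class of library, without a test. CAT followed by A, C or T, searched on the transcribed strand within 10 nt of the site, was present at 56.5% of the factor-gene sites and 55.5% of all sites. It was at 49 of the 73 sites of IGF2BP libraries alone (67.1%, all genes 63.3%), at 8 of the 20 of METTL1 or WDR4 alone (40%, all genes 31.0%) and at 17 of the 38 of both (44.7%, all genes 55.2%). GGCA was at 21.4% of the factor-gene sites and 18.0% of all, and CGGC at 11.5% and 11.7%. Within the sites, G made up 13.7% of the bases in those of IGF2BP libraries alone and 22.2% in those of METTL1 or WDR4 alone, with 11.4% and 23.7% over all genes. Of the 69 sites that lay in the 3' UTR of the longest coding transcript, the median centre was 1134 nt after the stop codon, and 8 lay within 200 nt of it.

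Single-copy sequence was less common in factor-gene clusters than in others. It took 37.5% to 66.7% of their mRNA-exon clusters in the IGF2BP libraries (all genes 64.7% to 83.9%) and 40.7% to 58.3% in the METTL1 and WDR4 libraries (all genes 62.7% to 71.0%). Among the genes with the most clusters it ranged from 0 of 24 in EIF4H and 3 of 20 in EIF5A to 24 of 27 in EIF4G2 and 57 of 58 in EEF2. The median factor gene had 94.2% of its 30-nt mRNA-exon windows unique in hg38, and 9 genes had under 50%. Of 153 annotated pseudogenes of these genes, 7 held clusters, 26 in all. Counts of reproducible sites on single-copy clusters alone are those given above.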

How the data were processed

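In HepG2 cells, PAR-CLIP was performed for 3 IGF2BP proteins, METTL1 and WDR4. The authors, by the study's methods, filtered, clipped and collapsed reads with the FASTX toolkit, kept reads of more than 15 nt, mapped them with bowtie (at most 3 mismatches and 10 places) and called clusters with PARalyzer. Versions and PARalyzer settings were not given in the sources used here. The build was hg38, from the submitters' processing notes. A line of a deposited file holds the interval of 1 cluster in 1 library. They carry no score, read count or conversion count, so the depth behind a cluster is unknown and the values are positions of another kind than a count.

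Starts were read as counted from 1, since 74.5% to 94.7% of a library's clusters had G as the base before the start. Clusters were assigned by their midpoint and strand to genes of GENCODE release 44, and classed as coding sequence before 3' UTR, 5' UTR, other exon and intron. The exons used for counts and tests were mRNA exons of protein-coding transcripts. Copies are exact occurrences in hg38 of the central 20 nt of a cluster, on either strand. Tests were two-sided exact permutation tests with the threshold at an adjusted p of 0.05. Replicates are separate samples by the labels, which do not say whether they were separate cultures, so the spread between them may be technical alone. The test took libraries of the same protein as separate units. Its p-values therefore mix the spread between proteins of a class with that between replicates. Genes given value by value had a reproducible site for at least 4 proteins, were among the 3 with the most clusters for a protein, passed the test, or were named beforehand (EEF1A1, EEF2, EIF4EBP1, EIF4EBP2, EIF4G2, EIF4A1 and EIF4A2). The other genes in the text were chosen after their values were seen. Members, role lists and tests were chosen with earlier results of these data known. Python 3.11.15, numpy 2.4.6, pandas 2.3.3 and pysam 0.24.0 were used, and the test was checked on simulated clusters. Alternatives changed the scale, the filter, the libraries, the unit, the clusters and the gene model. Input RNA, RNA levels and m7G maps were not analysed here.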

Additional observations from a re-analysis of the deposited data

Results flagged for a closer look

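Dixon's ratio was computed in 43 groups of 4 or 8 libraries whose values were not all equal, 31 of single genes and 12 of values summed over the factor genes. In 5, all of single genes, a library lay far from the rest. The cutoffs flag about 1 in 20 groups of continuous values by chance, a rate that need not hold for counts as small as these. A group with clusters in only 1 library is always flagged. EIF5 was at 2.18 clusters per 10000 in IGF2BP2 replicate 1, where the other 7 IGF2BP libraries lay between 1.27 and 1.66; all 3 values stem from 1 or 2 clusters. EIF4A1 was at 0 in METTL1 replicate 1 among the 4 METTL1 and WDR4 libraries, and at 0 in bio2 replicate 2 among the 4 IGF2BP3 libraries. EIF4EBP1 and EIF5B were each at 1.09, which is 1 cluster, in WDR4 replicate 2, with 0 in the other METTL1 and WDR4 libraries.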

How the results depend on the processing

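The number of factor genes with more clusters in the IGF2BP libraries (1, EIF5) was 0 per 10000 mRNA-exon clusters, on raw numbers, on presence or absence, with genes of at least 1 library, without both bio2 libraries, with the protein as the unit (where the smallest p is 0.1), on single-copy clusters and on clusters at or above the median width. With genes of at least 8 libraries it was 4, namely EIF1AD, EIF2AK1, EIF2S1 and EIF5 (28.6% of 14, against 21.8% of all 1278 tested). A gene without METTL1 or WDR4 clusters enters there only with clusters in all 8 IGF2BP libraries, so its classes cannot overlap. This holds for EIF5 and EIF2S1. The number was 1 with any overlap (3.33%, all genes 4.21%) and with the longest coding transcript (4%, all genes 4.27%). It was 0 to 3 when 1 library was left out. Without IGF2BP2 replicate 1 it was 3, namely EIF1AD, EIF1B and EIF5 (10%, all genes 6.67%), and without any of the other 11 it was 0. With the replicate block it was 0. Over 15 pairs of groups, the differences between replicates 1 and 2 correlated between -0.0656 and 0.0699. Most genes had few clusters in a library, so these correlations cannot tell whether samples of the same replicate number were prepared together. The number with fewer clusters was 0 in every one of these settings. Per 10000 mRNA-exon clusters the differences were -3.47 for EIF4H (unadjusted exact permutation p = 0.00808, adjusted 0.119), -3.35 for EIF4G2, -2.09 for EEF2, -1.46 for EIF4EBP2 and -0.89 for EIF4A1. Per 10000 clusters of the library, that of EIF4G2 (0.31) was -0.13 without WDR4 replicate 2 and reached 0.66 without METTL1 replicate 2. On clusters at or above the median width, EIF4EBP2 was at -0.28 and EIF4G2 at -0.76.

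The number of genes with a reproducible site on single-copy clusters was 17 in IGF2BP1 and IGF2BP3, 4 in METTL1, and 3 in IGF2BP2 and WDR4. On clusters at or above the median width it was 17 in IGF2BP3 (24.3%, all genes 7.5%), 13 in IGF2BP1 (18.6%, 7.28%), 6 in IGF2BP2 (8.57%, 2.91%) and METTL1 (8.57%, 1.61%), and 4 in WDR4 (5.71%, 1.91%). For IGF2BP3 it was 13 for sites in all 4 libraries (18.6%, all genes 4.9%), 19 without the bio2 libraries (27.1%, 9.81%) and 21 in the bio2 libraries alone (30%, 9.02%). Without 1 IGF2BP3 library it was 19 to 25 (27.1% to 35.7%, all genes 10.3% to 10.9%). An overlap of 10 nt left all 5 numbers as they were. The 3' UTR share differed by 12.8 percentage points on single-copy clusters, which were few in each METTL1 and WDR4 library, and by -4.13 to 6.15 without 1 library. The causes were not tested. A gene with 1 cluster in a library rests on a single call of unknown depth.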
